A study of Mus musculus with 14 samples.

Results

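RNA that came down with an antibody against phosphorylated ribosomal protein S6 (IP) was compared with RNA of the input fraction in the hypothalamus of mice on control diet (NCD). The comparison used 3 IP libraries and 3 input libraries, 6 of the 14 libraries of the series, chosen by their labelled fraction and diet. All mice were male C57BL/6N animals with no transgene named in the labels, aged 10 weeks, and those compared here were on control diet for 3 days. Per the labels, 8 hypothalami were pooled for each precipitation and 4 precipitations were made per condition, of which 3 on control diet were used here. The other 8 libraries, 4 IP and 4 input, came from mice given a high-fat diet (HFD) for the same 3 days. They serve here only as separate pools in which the same contrast can be read.

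S6 is a protein of the small ribosomal subunit that S6 kinases phosphorylate downstream of mTOR and other pathways, and in neurons its phosphorylation is widely used as a mark of recent activity. An antibody against the phosphorylated form pulls down ribosomes together with the messages they are translating, so IP over input is read as enrichment in cells with phosphorylated S6. Many messages for ribosomal proteins and translation factors start with a 5′ terminal oligopyrimidine (TOP) tract, through which their translation is regulated by mTOR.

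Expression is given as FPKM as deposited, a count of fragments divided by transcript length and by the depth of the library. The read depth behind the values is unknown. IP libraries varied far more than input libraries: pairs of IP libraries correlated at 0.708 to 0.823 and pairs of input libraries at 0.971 to 0.979, as a description across genes. Of all entries, 10.9%, 0.771% and 5.18% were listed at 0 in the IP libraries of index 0, 1 and 2, against 0.427%, 0.626% and 0.282% in the input libraries. Values of single libraries follow this order of index throughout. The index is that of the table columns. The deposited ratios divide IP by input of the same index, but no label ties an index to a pool. The sample titles number both fractions alike, but the columns do not carry those numbers. In the main fit the index only names libraries. Fits that use it as a block or leave an index out are given in the last section. In bulk samples, a different number of cells of a type and a different amount of RNA per cell cannot be told apart, and RNA carried along without phosphorylated S6 was not measured here.

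Of 12359 genes with a mean of at least 1 FPKM over the 6 libraries, 1948 (15.8%) passed an adjusted p of 0.05 in limma, with 1300 higher in IP (10.5%) and 648 lower in IP (5.24%). The typical call was large, with a median size of 1.77 on the log2(FPKM + 1) scale and a smallest size of 0.63, and 1837 calls exceeded 2-fold. The 3 IP and 3 input values did not overlap in 5054 genes (40.9%), a set that holds all 1948 calls. The median change of all tested genes was 0.04. Of the calls, 66.7% were higher in IP. That share was 44.5% with quantile normalization, where the median of all genes was -0.07, and 29.3% with values rescaled without the mitochondrially encoded genes, where the median of all genes moved to -0.43. Which direction held the majority therefore turned with the scaling. The counts and medians of lists below are to be read against these shares and medians of all genes. The number of calls was 604, 529 and 590 with the input library of index 0, 1 or 2 left out and 3830 with the IP library of index 0 left out.

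**Figure D1:**
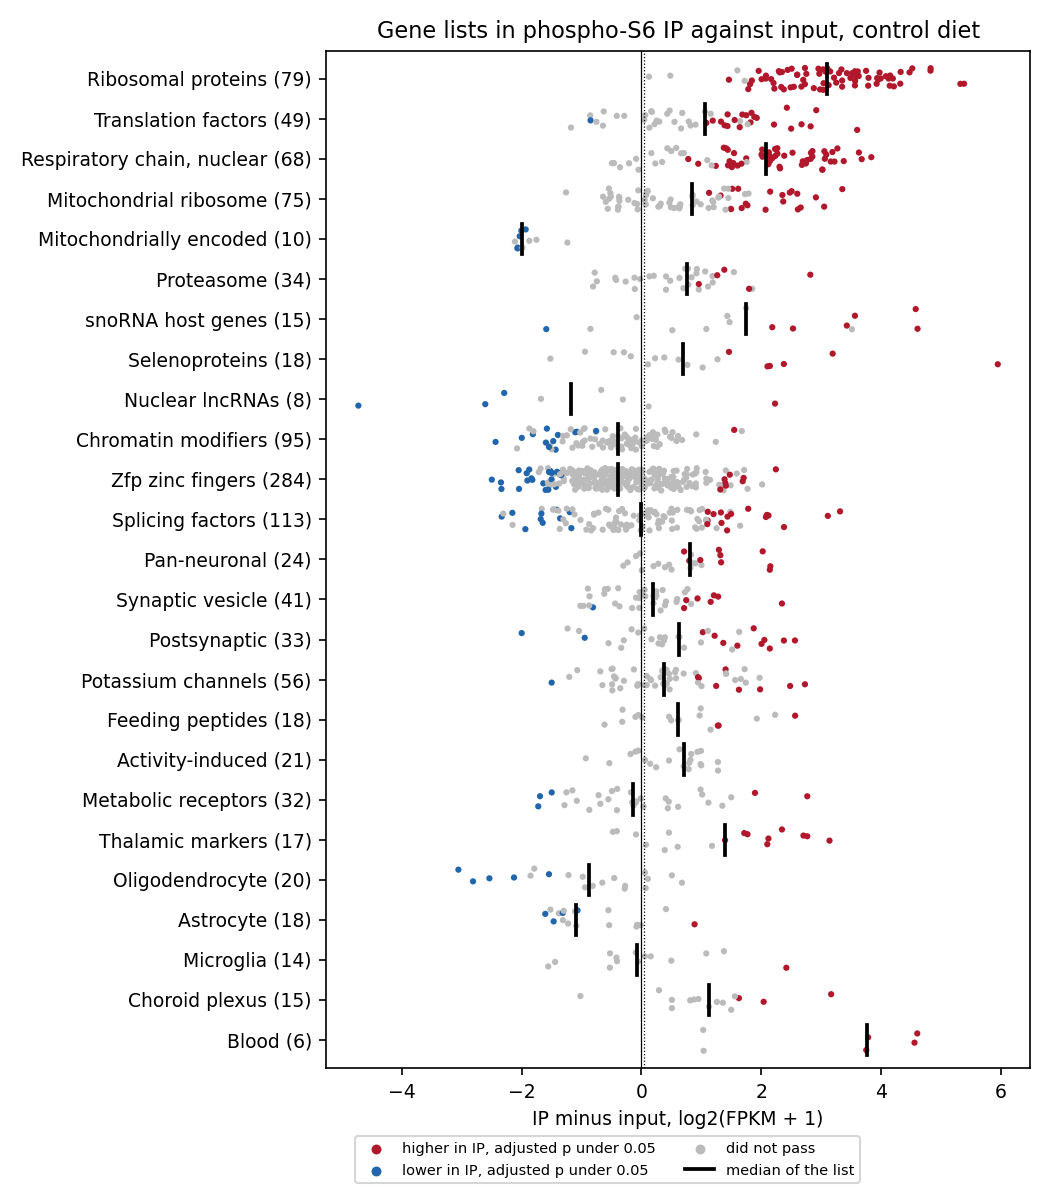
Log2 difference of IP minus input (x axis, log2(FPKM + 1) scale) for the tested members of 25 gene lists on control diet, 1 point a gene, with the number of tested members in parentheses. Black bars are list medians and the dotted line is the median of all genes, 0.04. Ribosomal protein genes (median 3.1) and nuclear respiratory chain genes (median 2.07) lie to the right and mitochondrially encoded genes (median -2.0) to the left. With quantile normalization the medians of the pan-neuronal and synaptic vesicle lists were below 0, at -0.15 and -0.64.

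Messages for the cytosolic ribosome were far more abundant in IP. Of 79 ribosomal protein genes tested, 75 were higher in IP and 0 were lower, leaving 4 without a call, against 10.5% higher and 5.24% lower over all genes. All 79 had a positive log2 change and the median was 3.1. The 4 that did not pass were Rpl15, Rps2 and the paralogs Rpl7l1 and Rps27l. Together the list took 7.74%, 5.64% and 6.44% of summed FPKM in the IP libraries, against 0.753%, 0.699% and 0.788% in the input libraries. The count was 68 to 72 with 1 input library left out and 75 to 76 with 1 IP library left out. It was 74 with quantile normalization (list median 2.3) and 75 without mitochondrially encoded genes (list median 2.54).

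Rps6 encodes the S6 protein itself (chromosome 4, 86854660 to 86857412, minus strand, GRCm38). It had 311, 148 and 259.5 FPKM in IP, against 68, 58.4 and 62.8 FPKM in input. All IP values lay above all input values, and the log2 change was 1.85 ± 0.29, adjusted p = 0.0070, which is below the median of the list. Rpl29, a protein of the large subunit, changed most within the list. It had 644, 458 and 352 FPKM in IP, against 12.1, 9.28 and 9.51 FPKM in input, a log2 change of 5.39 ± 0.27, adjusted p = 0.00035. Rps21, of the small subunit, had 1965, 799 and 686 FPKM in IP, against 24.7, 24 and 24.9 FPKM in input (5.33 ± 0.38, adjusted p = 0.00040). Within IP, the library of index 0 held the highest value of both genes, and the input values lay close together. The most abundant message of the list was Rpl31, with 3396, 1741 and 1973 FPKM in IP, against 323, 226 and 248 FPKM in input (3.1 ± 0.29, adjusted p = 0.00093). Ribosomal protein genes have many processed pseudogenes, and how shared reads were assigned between a gene and its copies is not given in the sources used here.

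Initiation and elongation factors moved less uniformly. Of 49 genes on a list of translation factors and some other messages counted as TOP messages, 21 were higher in IP and 1 was lower. The other 27 did not pass, and not every member is known to carry a TOP tract. The median was 1.06, which was 0.42 with quantile normalization and 0.5 without mitochondrially encoded genes. Calls were 12 higher and 3 lower with quantile normalization, and 16 higher and 2 lower without mitochondrially encoded genes. Eif1, which helps select the start codon, had 689, 838 and 402 FPKM in IP, against 56.2, 45.2 and 48 FPKM in input (3.6 ± 0.29, adjusted p = 0.00057). Eef1a1, which delivers aminoacyl-tRNA to the ribosome, had 1345, 829 and 1471 FPKM in IP, against 209.9, 131 and 135 FPKM in input (2.92 ± 0.29, adjusted p = 0.0011). Both genes were several-fold higher in every IP library than in any input library. Eef1b2, the exchange factor of that complex, changed by 2.21 ± 0.18, adjusted p = 0.00055, although its exons overlap Ndufs1 on the other strand and the library kit does not mark strand. Eif4g2 (1.89), Tpt1 (2.5), Npm1 (1.69) and the translocase Eef2 (1.39) were higher too. Eif3a, the largest scaffold of initiation factor 3, was the member that was lower, with 31.5, 39.4 and 49.7 FPKM in IP, against 68, 70.1 and 78.6 FPKM in input (-0.85 ± 0.23, adjusted p = 0.047). The count of higher factors was 10 to 12 with 1 input library left out and 22 to 26 with 1 IP library left out.

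The first bases of such transcripts are shown here because the TOP tract sits there. Each window covers 30 bases of the RefSeq annotation of GRCm38.p6, 15 before and 15 from the annotated start, 5′ to 3′, and capitals mark a run of at least 6 C or T that comes within 5 bases of the start. The first group has such a run, and Rpl41, Rps28, Eef1b2 and Chuk have none. For a gene with several listed starts, the start with the longest run is shown.
Rps6, chr4:86857353-86857382, minus strand: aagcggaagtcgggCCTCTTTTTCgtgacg
Rpl35a, chr16:33056467-33056496, plus strand: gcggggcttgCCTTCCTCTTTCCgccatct
Rps27, chr3:90213634-90213663, minus strand: atttccgctttcgCTCCTTTCCggcggtga
Rps21, chr2:180257364-180257393, plus strand: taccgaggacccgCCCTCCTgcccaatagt
Eef1a1, chr9:78481710-78481739, minus strand: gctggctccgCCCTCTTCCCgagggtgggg
Snhg8, chr3:123508322-123508351, minus strand: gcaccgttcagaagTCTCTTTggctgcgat
Gas5, chr1:161035151-161035180, plus strand: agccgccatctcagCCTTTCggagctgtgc
Rpl41, chr10:128549154-128549183, minus strand: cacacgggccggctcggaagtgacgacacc
Rps28, chr17:33824548-33824577, minus strand: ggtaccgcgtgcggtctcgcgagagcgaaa
Eef1b2, chr1:63176816-63176845, plus strand: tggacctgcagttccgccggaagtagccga
Chuk, chr19:44107463-44107492, minus strand: gtgacgcagtctcgcgagacggaggactcc

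Such a run was present at a listed start of 30 of 58 ribosomal protein genes (51.7%) and of 2213 of 8973 tested genes (24.7%). Counted by single starts and not by genes, 6905 of all 32851 listed starts had one (21%), which is not the same measure. The run did not separate ribosomal protein genes by their size of change: the median was 3.07 with a run and 3.06 without. On the translation factor list 10 of 40 genes had a run (25%), with a median of 1.12 with and 0.62 without. Rps28 has none and had 1162, 537 and 752 FPKM in IP, against 39.5, 31.3 and 43.2 FPKM in input (4.33 ± 0.3, adjusted p = 0.00037), while Rpl35a has a run of 13 and had 233, 119 and 159.99 FPKM in IP, against 9.86, 6.16 and 8.04 FPKM in input (4.22 ± 0.31, adjusted p = 0.00043). Over all tested genes the medians were 0.03 with and 0.03 without a run. Of genes higher in IP 25.4% had a run, and of genes lower in IP 24.6%. A match says nothing about the start that these cells use, and a gene with several listed starts was counted by the longest run among them.

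Genes of the S6 kinase and mTOR pathway gave calls in shares near those of all genes (10.5% higher and 5.24% lower). Of 44 tested, 6 were higher in IP and 2 were lower, with a median of 0.12 (-0.22 with quantile normalization and -0.4 without mitochondrially encoded genes). The balance turned with the scaling, to 5 higher and 6 lower with quantile normalization, and 5 higher and 8 lower without mitochondrially encoded genes. Besides Rps6, the higher ones were Lamtor1 (1.6), Lamtor2 (3.11), Lamtor3 (2.27) and Lamtor5 (1.44), small subunits of the Ragulator complex that anchors mTORC1 at the lysosome, and the GTPase gene Rragb (1.16). Lamtor2 had 223, 101 and 89.2 FPKM in IP, against 21.1, 8.26 and 14.6 FPKM in input (3.11 ± 0.45, adjusted p = 0.0048), with no overlap between the fractions. Lower were Rictor, the defining subunit of mTORC2, with 3.53, 5.95 and 2.96 FPKM in IP, against 11.9, 13.2 and 10.6 FPKM in input (-1.36 ± 0.36, adjusted p = 0.045), and Deptor, an inhibitor of mTOR (-1.21 ± 0.33, adjusted p = 0.046). The counts were 4 to 5 with 1 input library left out and 6 to 10 with 1 IP library left out for higher genes, and 0 with 1 input library left out and 2 to 4 with 1 IP library left out for lower ones.

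Messages for the respiratory chain differed by the genome that encodes them. Among 68 nuclear-encoded subunits tested, 51 were higher in IP and 0 were lower, with a median of 2.07. Summed levels were 17013 to 18075 FPKM in IP and 3896 to 4316 FPKM in input. With quantile normalization 39 were higher and 1 was lower, with a median of 1.19. Without mitochondrially encoded genes 42 were higher and 1 was lower, with a median of 1.51. Of 10 mitochondrially encoded genes, 0 were higher and 5 were lower, with a median of -2.0 and summed levels of 10836 to 76488 FPKM in IP and 77980.1 to 121062 FPKM in input. Mitochondrial messages are translated inside the organelle on its own ribosomes, which lack S6.

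Among nuclear genes, Cox6b1, a small subunit of cytochrome c oxidase, had 1186, 1475 and 1143 FPKM in IP, against 97.9, 98.6 and 106 FPKM in input (3.63 ± 0.18, adjusted p = 0.00035). Atp5mpl, a small ATP synthase subunit, had 972, 918 and 699 FPKM in IP, against 60.4, 73.9 and 63.6 FPKM in input (3.68 ± 0.2, adjusted p = 0.00035). Uqcr10, of the cytochrome bc1 complex, had 194, 202 and 199 FPKM in IP, against 27.7, 26.4 and 25.5 FPKM in input (2.86 ± 0.17, adjusted p = 0.00035). The 3 IP libraries were alike for these genes and far above input. Atp5b, the catalytic beta subunit of ATP synthase and the most abundant of the list, changed less, by 0.95 ± 0.23, adjusted p = 0.031. Ndufs1, a large complex I subunit, had 28.6, 26.2 and 10.5 FPKM in IP, against 21, 21.5 and 21.5 FPKM in input and did not pass (-0.09 ± 0.39, adjusted p = 0.91).

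For mitochondrially encoded genes the IP libraries fell apart. mt-Nd2, of complex I, had 7035, 3083 and 1446 FPKM in IP, against 13254, 12003 and 10997 FPKM in input (-1.93 ± 0.52, adjusted p = 0.046). mt-Co2, of cytochrome c oxidase, had 496, 195 and 97.5 FPKM in IP, against 1052, 883 and 667 FPKM in input (-2.01 ± 0.54, adjusted p = 0.045). The IP library of index 0 was nearest to input and that of index 2 farthest from it, and the median change of the 10 genes was -0.76, -2.0 and -3.18 in the IP libraries of index 0, 1 and 2. mt-Co1, the most abundant, did not pass (-1.24 ± 0.78, adjusted p = 0.33). The count of 5 was 0 with 1 input library left out and 0 to 9 with 1 IP library left out. Quantile normalization left the direction as it was, with a median of -1.39.

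Mitochondrial ribosomal protein genes, which are nuclear, stood between these. Of 75 tested, 20 were higher and 0 were lower, with a median of 0.85. Mrpl52 had 82, 52.2 and 72.3 FPKM in IP, against 6.94, 6.25 and 4.23 FPKM in input (3.36 ± 0.3, adjusted p = 0.00077), and Mrps21 changed by 3.05 ± 0.3, adjusted p = 0.0011. The count was 8 to 9 with 1 input library left out and 21 to 27 with 1 IP library left out.

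**Figure D2:**
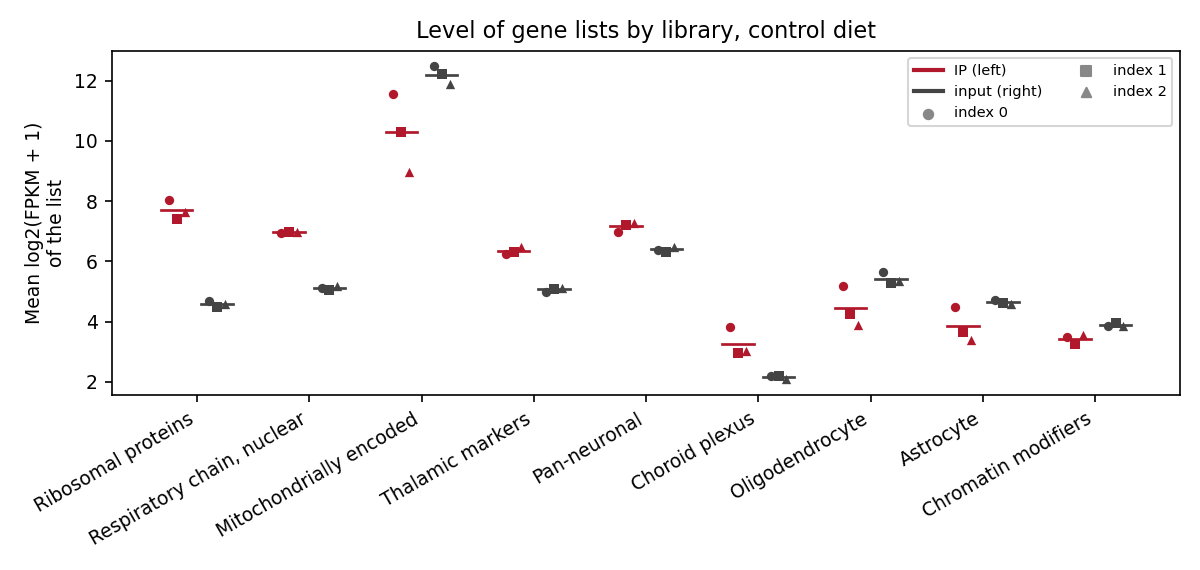
Mean log2(FPKM + 1) of 9 gene lists (y axis) in each of the 3 IP libraries (left of each pair, red) and the 3 input libraries (right, grey) on control diet; marker shapes give the index and horizontal bars the group mean. IP libraries of index 0, 1 and 2 spread widely for mitochondrially encoded genes, with list medians of -0.76, -2.0 and -3.18 relative to input, and much less for nuclear respiratory chain genes, with 2.12, 1.99 and 1.98.

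The enriched messages were short. The median coding length was 639 bases in genes higher in IP, 2088 bases in genes lower in IP and 1419 bases in all tested genes, and the median transcript length was 1454, 4165 and 2970 bases in the same order. Among protein-coding genes with at most 300 coding bases, the median change was 1.65 and 50.2% were higher in IP (n = 221). In the bin of over 4800 bases it was -0.53 and 1.87% were higher (n = 536). The order held with the ribosomal protein and respiratory chain lists left out, at 1.41 and -0.53 in the same bins. Across genes the Spearman correlation of change with coding length was -0.38 (n = 10851), and with the GC percent of the transcript 0.26 (n = 12349). Genes are not independent replicates, and FPKM is already divided by length. The median coding length was 444 bases in ribosomal protein genes, 405 in nuclear respiratory chain genes and 588 in mitochondrial ribosomal protein genes. The part of length in any list, above or below, was not tested.

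**Figure D3:**
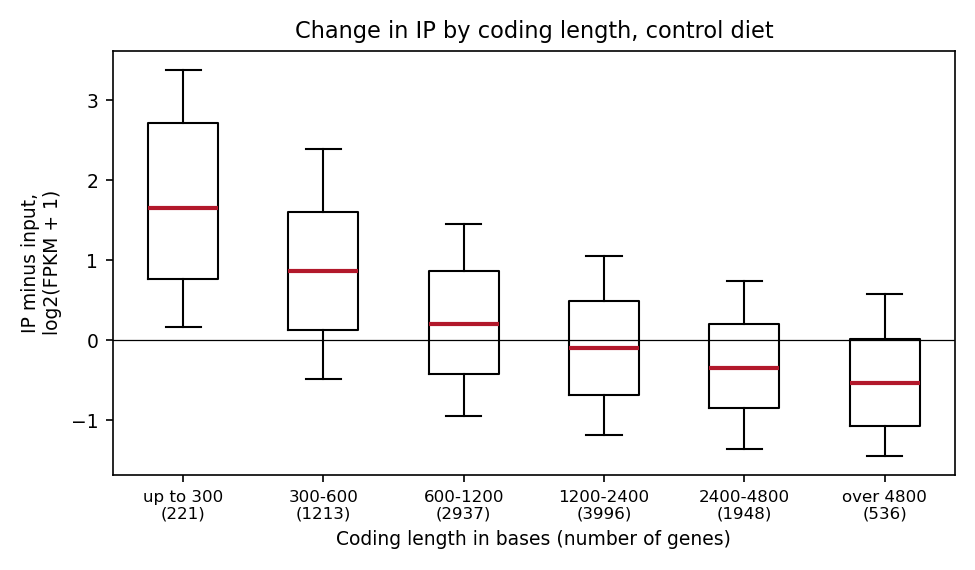
Log2 difference of IP minus input (y axis, log2(FPKM + 1) scale) of protein-coding genes in 6 bins of coding length (x axis, bases, with the number of genes). Red lines are medians, boxes span the middle 50 percent of genes and whiskers the 10th to the 90th percentile. The median falls from bin to bin, from 1.65 in the shortest bin to -0.53 in the longest.

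Outside every list, the higher genes with the smallest p were Tomm6, Pcp4l1, Cops9, Igsf5, Tmsb10, Nedd8, Usmg5, Gpr137, Rnf208 and Ypel3. Tomm6, a small subunit of the mitochondrial import pore, had 314, 246 and 290.4 FPKM in IP, against 26.3, 22.1 and 25.2 FPKM in input (3.47 ± 0.19, adjusted p = 0.00035), and its exons overlap Tomm6os and Usp49 on the other strand. Cops9, the smallest subunit of the COP9 signalosome, had 923, 676 and 652 FPKM in IP, against 82.6, 67.7 and 82.6 FPKM in input (3.24 ± 0.21, adjusted p = 0.00035). Tmsb10, thymosin beta 10, which binds actin monomers, had 368, 439.5 and 274 FPKM in IP, against 24.6, 22.4 and 32.2 FPKM in input (3.71 ± 0.25, adjusted p = 0.00035). All 3 were more than 8-fold higher in IP on this scale. Nedd8, a ubiquitin-like modifier, changed by 2.69 ± 0.18, adjusted p = 0.00035, with exons that overlap Gmpr2. Igsf5 is listed at 10086, 13701 and 13849 FPKM in IP, against 1219, 1292 and 1337 FPKM in input (3.27 ± 0.22, adjusted p = 0.00035), and another gene model of the same symbol overlaps it.

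The lower genes with the smallest p were Ints6l, Chuk, Ogt, Tspyl4, Ccdc88a, Zcchc7, Paxbp1, Stk38, Nvl and Dusp11. Chuk, a kinase of the NF-kappaB pathway, had 3.2, 3.53 and 3.47 FPKM in IP, against 24.8, 31.8 and 26 FPKM in input (-2.69 ± 0.29, adjusted p = 0.0015). Ogt, which attaches O-linked N-acetylglucosamine to nuclear and cytosolic proteins, had 33.5, 23.9 and 26.5 FPKM in IP, against 120.2, 156 and 108 FPKM in input (-2.15 ± 0.24, adjusted p = 0.0016). Ints6l, related to a subunit of the Integrator complex, had 0.585, 0.849 and 0.569 FPKM in IP, against 17.1, 18.1 and 13.9 FPKM in input (-3.37 ± 0.36, adjusted p = 0.0014). Each had IP values within a narrow band, far below input. Rev1, a polymerase that copies damaged DNA (-2.97), Pspc1, a paraspeckle protein (-2.75), and Msantd2 (-3.08) were among the largest falls as well.

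Some neuronal messages were higher in IP. Of 24 pan-neuronal genes, 9 were higher and 0 were lower, leaving 15 without a call, with a median of 0.81, which was -0.15 with quantile normalization. The calls became 4 higher and 3 lower with quantile normalization, and 5 higher and 1 lower without mitochondrially encoded genes. Rbfox3, the nuclear NeuN antigen of most neurons, had 69.3, 85.2 and 74.7 FPKM in IP, against 29.6, 28.4 and 31 FPKM in input (1.33 ± 0.2, adjusted p = 0.0056). Ncs1, a neuronal calcium sensor, had 59.1, 72.6 and 69.98 FPKM in IP, against 15.5, 16.3 and 15.3 FPKM in input (2.03 ± 0.21, adjusted p = 0.0013). Stmn3, a regulator of microtubules, had 112, 76.5 and 119.8 FPKM in IP, against 20.1, 20.05 and 26 FPKM in input (2.15 ± 0.25, adjusted p = 0.0021). In each the fractions did not overlap. Vsnl1 (1.29), Thy1 (1.32), Eno2 (0.98) and Nrgn (2.14) passed too. Snap25, the most abundant, had 7203, 9281 and 10799.7 FPKM in IP, against 5022, 4655 and 5499.5 FPKM in input and did not pass (adjusted p = 0.057), nor did Map2 (-0.23). The count was 3 to 4 with 1 input library left out and 8 to 14 with 1 IP library left out.

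Synaptic genes moved in both directions, against 10.5% higher and 5.24% lower over all genes. Of 33 postsynaptic genes, 10 were higher and 2 were lower, with a median of 0.62. These became 7 higher and 6 lower with quantile normalization, and 7 higher and 5 lower without mitochondrially encoded genes. Dlg4, which encodes the scaffold PSD-95, had 439, 395 and 262 FPKM in IP, against 82.4, 83.3 and 89.8 FPKM in input (2.05 ± 0.23, adjusted p = 0.0018). Lrrtm1, a synapse organizer, had 50.5, 69.8 and 62.4 FPKM in IP, against 14.9, 14.4 and 13.5 FPKM in input (2.01 ± 0.23, adjusted p = 0.0019). In both genes the lowest IP value exceeded the highest input value more than 2-fold. The count was 5 to 6 with 1 input library left out and 10 to 15 with 1 IP library left out. Of 41 synaptic vesicle and SNARE genes, 7 were higher and 1, Rab3c, was lower, with a median of 0.2 (-0.64 with quantile normalization and -0.36 without mitochondrially encoded genes). Most calls turned to lower under other scalings, with 2 higher and 11 lower with quantile normalization, and 2 higher and 8 lower without mitochondrially encoded genes. The vesicle SNAREs Vamp1 (1.28 ± 0.18, adjusted p = 0.0045) and Vamp2 (1.21 ± 0.19, adjusted p = 0.0063) and the vesicle protein Sv2b (1.16 ± 0.19, adjusted p = 0.0076) were higher. That count was 2 to 3 with 1 input library left out and 7 to 11 with 1 IP library left out.

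Channels and receptors gave calls in shares near the 15.8% of all genes. Of 56 potassium channel genes, 8 were higher and 1, Kcna3, was lower, with a median of 0.38 (-0.13 without mitochondrially encoded genes), and there were 9 higher and 4 lower with quantile normalization, and 5 higher and 5 lower without mitochondrially encoded genes. Kcnj3, a G protein-gated channel subunit, had 91, 80.8 and 106 FPKM in IP, against 18.5, 24.4 and 25.4 FPKM in input (1.98 ± 0.23, adjusted p = 0.0020). Kcnj11, the pore of the ATP-sensitive channel, had 27.3, 18.8 and 27.1 FPKM in IP, against 3.39, 3.96 and 3.14 FPKM in input (2.48 ± 0.31, adjusted p = 0.0028). The fractions of both were well apart. The count was 2 to 3 with 1 input library left out and 9 to 14 with 1 IP library left out. Of 30 calcium and sodium channel genes 4 were higher, among them the auxiliary subunits Cacng3 (2.24), Cacng2 (1.37) and Cacng4 (1.84), and 1 was lower, Scn3a, with a median of -0.1. Lower calls outnumbered higher ones under other scalings, with 3 higher and 8 lower with quantile normalization, and 4 higher and 10 lower without mitochondrially encoded genes. Of 40 glutamate and GABA receptor genes 3 were higher and 3 lower, with a median of -0.1, and there were 0 higher and 7 lower with quantile normalization, and 0 higher and 9 lower without mitochondrially encoded genes. The GABA-B subunit Gabbr1 (1.1, and -0.02 with quantile normalization) was among the higher and the GABA-A subunit Gabra2 (-1.77 ± 0.24, adjusted p = 0.0038) among the lower. The channel and receptor counts were 2 with 1 input library left out and 3 to 6 with 1 IP library left out for the higher calcium and sodium channels, and 0 with 1 input library left out and 2 to 8 with 1 IP library left out for the higher receptors.

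Of transmitter identity genes, 1 of 11 was higher and 0 were lower, with a median of 0.85. That median rested on 1 library: it was 1.68, 0.39 and 0.3 in the IP libraries of index 0, 1 and 2, and 0.26 with the IP library of index 0 left out. Slc17a7, a vesicular glutamate transporter, had 25.9, 17.3 and 27 FPKM in IP, against 7.06, 7.97 and 7.24 FPKM in input (1.51 ± 0.29, adjusted p = 0.016). Slc17a6, the main such transporter of the hypothalamus, had 66.4, 94.1 and 99.6 FPKM in IP, against 76.8, 83.6 and 82.4 FPKM in input and did not pass (0.08 ± 0.22, adjusted p = 0.85). Gad1, which makes GABA, had 77.6, 50.5 and 44.4 FPKM in IP, against 28.7, 25.9 and 31.6 FPKM in input, without overlap but just outside the threshold (0.94 ± 0.27, adjusted p = 0.053), and Gad2 had 178, 92.8 and 128 FPKM in IP, against 144, 132 and 154 FPKM in input (-0.16 ± 0.26, adjusted p = 0.73). The call on Slc17a7 is not kept with 1 input library left out, when the count was 0, and with 1 IP library left out the count was 3.

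Peptides that act in feeding circuits differed from each other. Of 18 tested, 3 were higher in IP and 0 were lower, against 10.5% higher and 5.24% lower over all genes. The median of the list was 0.62. Under other scalings 1 was higher and 0 were lower, with a median of 0.35 with quantile normalization and 0.28 without mitochondrially encoded genes. Cck, cholecystokinin (chromosome 9, 121489824 to 121495694, minus strand), had 1467, 1775 and 2789 FPKM in IP, against 327, 323 and 327 FPKM in input. Every IP library was over 4-fold above every input library, and the log2 change was 2.57 ± 0.26, adjusted p = 0.0011. Sst, somatostatin, had 139.6, 145 and 271 FPKM in IP, against 70.2, 65.7 and 81.9 FPKM in input (1.28 ± 0.29, adjusted p = 0.026). Pmch, the precursor of melanin-concentrating hormone of the lateral hypothalamus, had 355, 195 and 143 FPKM in IP, against 87.9, 76.7 and 98.3 FPKM in input (1.29 ± 0.33, adjusted p = 0.040), and its exons overlap Parpbp on the other strand. Both were higher in each IP library than in any input library. The count was 1 with 1 input library left out and 2 to 7 with 1 IP library left out.

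Peptides of the arcuate nucleus, the site where feeding signals from blood are read, did not pass on control diet. Npy, made by hunger neurons, had 7.52, 9.89 and 40.7 FPKM in IP, against 3.62, 3.57 and 2.34 FPKM in input (1.93 ± 0.62, adjusted p = 0.076). The IP library of index 2 stood well above the others, and the fractions did not overlap. Agrp, made by the same neurons, had 0, 1.19 and 6.57 FPKM in IP, against 1.44, 1.51 and 2.02 FPKM in input (-0.05 ± 0.71, adjusted p = 0.97), and its exons overlap Ctcf. Pomc, the melanocortin precursor of satiety neurons, had 0, 5.07 and 5.76 FPKM in IP, against 1.33, 1.27 and 1.15 FPKM in input (0.61 ± 0.74, adjusted p = 0.63). For both, the IP library of index 0 was listed at 0 while the other IP values were at or above the input range, apart from Agrp in the IP library of index 1. Cartpt had 22.8, 11.4 and 10.6 FPKM in IP, against 11, 8.02 and 10.3 FPKM in input (0.5 ± 0.37, adjusted p = 0.41). Pnoc was below the filter of 1 FPKM.

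Peptides of other nuclei varied as widely. Crh, corticotropin-releasing hormone, had 0, 16.4 and 11.5 FPKM in IP, against 0.257, 0.446 and 0.147 FPKM in input (2.23 ± 1.02, adjusted p = 0.18), so that only 1 IP library was at 0 and the others were far above input. Hcrt, which encodes the orexins, had 6.62, 25.6 and 5.83 FPKM in IP, against 5.07, 3.39 and 5.87 FPKM in input (0.97 ± 0.57, adjusted p = 0.29), and Trh, thyrotropin-releasing hormone, had 2.03, 4.99 and 2.87 FPKM in IP, against 1.22, 1.8 and 2.09 FPKM in input (0.62 ± 0.42, adjusted p = 0.36). Penk, the enkephalin precursor, had 121, 64.6 and 58.4 FPKM in IP, against 42.2, 32.6 and 40.8 FPKM in input and did not pass (0.99 ± 0.31, adjusted p = 0.071). Avp, vasopressin, had 0, 5.39 and 0.441 FPKM in IP, against 0.941, 5.05 and 4.14 FPKM in input (-0.9 ± 0.79, adjusted p = 0.48). Among 11 other peptides and secreted neuronal factors, Cbln1 had 82.3, 127 and 263 FPKM in IP, against 22.8, 27.3 and 28 FPKM in input (2.39 ± 0.4, adjusted p = 0.0091) and Cbln2 changed by 1.21 ± 0.28, adjusted p = 0.029, both secreted organizers of synapses, and 0 were lower. The median of those 11 was 0.09 (-0.35 without mitochondrially encoded genes).

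**Figure D4:**
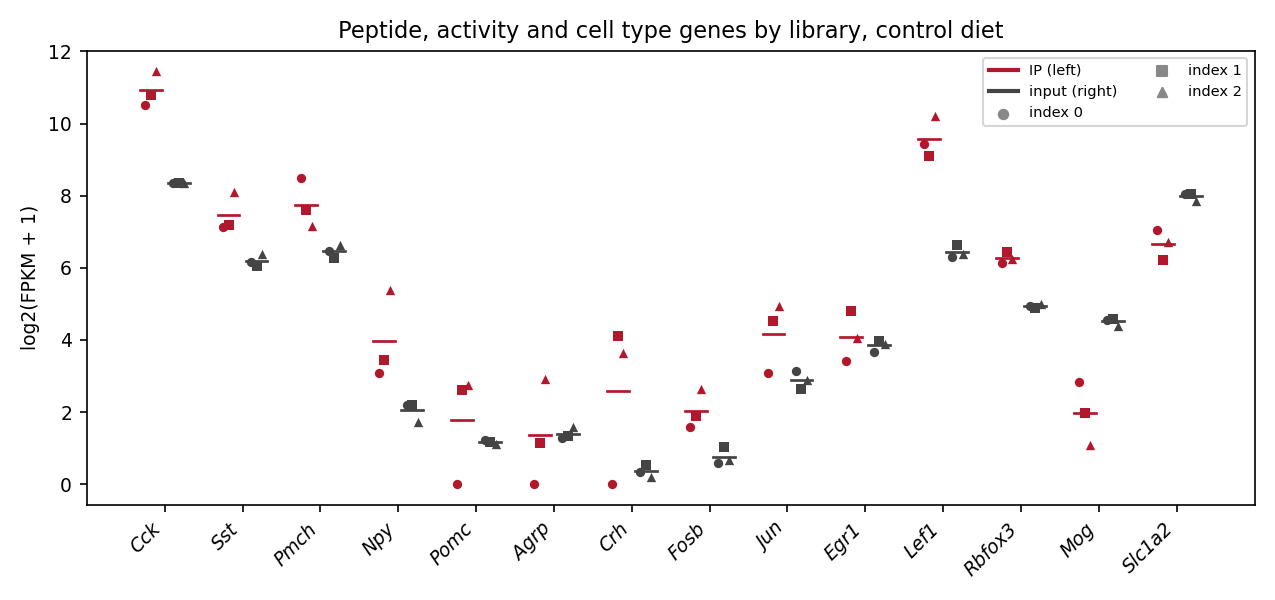
Level, log2(FPKM + 1), of 14 genes (y axis) in the 3 IP libraries (left of each pair, red) and the 3 input libraries (right, grey) on control diet; marker shapes give the index and horizontal bars the group mean. Cck, Lef1 and Rbfox3 lie above input and Mog and Slc1a2 below it in every IP library, while Pomc, Agrp and Crh are listed at 0 in the IP library of index 0.

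Of 15 granin and peptide processing genes, 4 were higher and 0 were lower, with a median of 0.24 (-0.39 with quantile normalization and -0.25 without mitochondrially encoded genes). The calls became 2 higher and 3 lower with quantile normalization, and 2 higher and 1 lower without mitochondrially encoded genes. Pcsk1n, an inhibitor of the convertase PC1, had 58.5, 70.9 and 106 FPKM in IP, against 12.6, 7.35 and 9.15 FPKM in input (2.88 ± 0.31, adjusted p = 0.0016), and its exons overlap Eras. Chga, chromogranin A, had 28.8, 44.6 and 49.4 FPKM in IP, against 13, 11.1 and 10.9 FPKM in input (1.69 ± 0.28, adjusted p = 0.0090). Both were higher in each IP library. The convertase Pcsk2 (0.95 ± 0.25, adjusted p = 0.042) and its chaperone Scg5 (0.96 ± 0.25, adjusted p = 0.043) passed narrowly, while Chgb (-0.06) and the carboxypeptidase Cpe (-0.01) did not. The count was 1 to 2 with 1 input library left out and 3 to 5 with 1 IP library left out.

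Genes induced by neuronal activity did not pass as single genes in either direction. Of 21 tested, 0 were called by limma (4 at an unadjusted p under 0.05), 3 had IP values all above input and 1 had IP values all below it, against 40.9% of all genes without overlap. The median was 0.71, but 0.17 with the IP library of index 1 left out and 0.26 without that of index 2, and within the IP library of index 0 it was -0.42. The summed level was 100.2 to 220.3 FPKM in IP and 83.2 to 92.5 FPKM in input. Fosb, a Fos family factor that builds up with repeated activity, had 2.01, 2.74 and 5.22 FPKM in IP, against 0.505, 1.03 and 0.606 FPKM in input (1.28 ± 0.42, adjusted p = 0.081). Jun had 7.43, 21.8 and 29.7 FPKM in IP, against 7.82, 5.26 and 6.47 FPKM in input (1.28 ± 0.51, adjusted p = 0.13). Homer1, whose short form is induced by activity, had 20.9, 27.5 and 53.2 FPKM in IP, against 15.3, 13.9 and 16.7 FPKM in input (1.0 ± 0.36, adjusted p = 0.11). Fosb and Homer1 were higher in each IP library, and Jun was not in that of index 0. Egr1 had 9.72, 26.7 and 15.7 FPKM in IP, against 11.7, 14.8 and 13.9 FPKM in input (0.25 ± 0.39, adjusted p = 0.72). Fos was below the filter. With the IP library of index 0 left out 5 were higher and 1 was lower, and with any other library left out 0 were called.

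Receptors for metabolic and feeding signals gave calls in shares near those of all genes (10.5% higher and 5.24% lower). Of 32 tested, 2 were higher and 3 were lower, with a median of -0.14 (0.09 with quantile normalization). The higher ones were Ramp3, with 42, 29.2 and 25.2 FPKM in IP, against 4.26, 2.9 and 4.22 FPKM in input (2.77 ± 0.33, adjusted p = 0.0022), and Ramp2 (1.9 ± 0.37, adjusted p = 0.016), whose products turn the calcitonin receptor into an amylin receptor. Ramp3 is also on the thalamic list. Lower were Npy2r, with 0.102, 0.646 and 0.35 FPKM in IP, against 2.94, 3.49 and 3.69 FPKM in input (-1.69 ± 0.36, adjusted p = 0.021), the opioid receptor gene Oprd1 (-1.5 ± 0.37, adjusted p = 0.036) and the oxytocin receptor gene Oxtr (-1.72 ± 0.44, adjusted p = 0.037). Their input levels were low, between 2 and 4 FPKM. The lower count was 0 with 1 input library left out and 4 to 6 with 1 IP library left out, and the higher count was 1 with 1 input library left out and 3 to 4 with 1 IP library left out.

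Markers of the neighbouring thalamus included many that were higher in IP. Of 17 tested, 9 were higher and 0 were lower, leaving 8 without a call, with a median of 1.4 and a summed level of 3257 to 4795 FPKM in IP and 1019 to 1064 FPKM in input. Lef1, a transcription factor of thalamic neurons, had 694, 546 and 1182 FPKM in IP, against 78.3, 97.4 and 82.7 FPKM in input (3.14 ± 0.3, adjusted p = 0.00093). Tcf7l2, its relative, had 577, 826 and 889.7 FPKM in IP, against 177, 172 and 174 FPKM in input (2.1 ± 0.21, adjusted p = 0.0011). Cplx1, which controls vesicle release, had 848, 728 and 1155 FPKM in IP, against 187, 159.99 and 178 FPKM in input (2.35 ± 0.22, adjusted p = 0.00090). In all 3 genes the lowest IP value was more than 3-fold above the highest input value. Cplx1 is also on the synaptic vesicle list, where its change was the largest (2.35). Tnnt1 (2.71), Ntng1, Adarb1, Rgs16 and Prkcd were called too, and Slc17a6 and Rora (-0.41) were not. The count was 9 with 1 input library left out and 9 to 11 with 1 IP library left out. Thalamic calls became 6 higher and 1 lower with quantile normalization (median 0.61), and 9 higher and 1 lower without mitochondrially encoded genes (median 0.83). Of 10 tested markers of cortex, hippocampus and striatum and of 2 of pituitary 0 were called by limma (3 and 0 at an unadjusted p under 0.05), with medians of 0.14 and -0.1. Of 15 transcription factors of hypothalamic regions 1 was higher, Six3, with 23.5, 28.8 and 17.5 FPKM in IP, against 7.56, 6.57 and 8.53 FPKM in input (1.48 ± 0.3, adjusted p = 0.018), with a list median of 0.3 (-0.12 without mitochondrially encoded genes). The call on Six3 was lost with any 1 input library left out and without mitochondrially encoded genes. The part of tissue from outside the hypothalamus in these results was not tested.

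Some markers of mature oligodendrocytes, the myelin-forming cells, were lower in IP. Of 20 tested, 5 were lower and 0 were higher, leaving 15 without a call, of which 5 had a positive change, with a median of -0.88 and a summed level of 935 to 1544 FPKM in IP and 1704 to 2199 FPKM in input. The calls became 0 higher and 12 lower with quantile normalization, and 0 higher and 13 lower without mitochondrially encoded genes. Mog, on the outer face of myelin, had 6.18, 2.95 and 1.14 FPKM in IP, against 22.7, 22.9 and 20.01 FPKM in input (-2.54 ± 0.47, adjusted p = 0.014). Mal, a myelin proteolipid, had 26.4, 16.1 and 5.86 FPKM in IP, against 132, 85 and 96.9 FPKM in input (-2.81 ± 0.49, adjusted p = 0.010). All IP values were below all input values, and the index 0 library was nearest to input in each. Ermn (-3.06), whose exons overlap Galnt5, and Fa2h (-2.13) were lower too. Mbp, myelin basic protein, whose message travels to the myelin sheath, had 322, 182 and 169 FPKM in IP, against 304, 229.6 and 251 FPKM in input (-0.27 ± 0.28, adjusted p = 0.56). The count was 2 to 3 with 1 input library left out and 5 to 12 with 1 IP library left out.

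Among astrocyte markers most did not pass. Of 18 tested, 4 were lower and 1 was higher, leaving 13 without a call, with a median of -1.1 and a summed level of 677 to 1096 FPKM in IP and 1090.4 to 1145 FPKM in input. The glutamate transporters Slc1a2, with 133, 73.5 and 105 FPKM in IP, against 266, 262 and 229.8 FPKM in input (-1.31 ± 0.25, adjusted p = 0.014), and Slc1a3 (-1.47 ± 0.35, adjusted p = 0.030) were lower, and so was the GABA transporter Slc6a11, with 43, 22.5 and 17.8 FPKM in IP, against 94.4, 75.3 and 74.4 FPKM in input (-1.61 ± 0.34, adjusted p = 0.020). Aldoc, a glycolytic enzyme, passed narrowly (-1.07 ± 0.29, adjusted p = 0.047). Higher was Atp1b2, a sodium pump subunit (0.89 ± 0.22, adjusted p = 0.034, and -0.28 with quantile normalization). Gfap (-1.38) and Aqp4 (-1.52) did not pass, although all their IP values lay below input. The lower count was 0 with 1 input library left out and 4 to 8 with 1 IP library left out.

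Other cell types gave 1 call a list or none. Of 14 microglial markers 1 was higher, the lysosomal protein Cd68, with 6.76, 7.41 and 26.3 FPKM in IP, against 1.3, 0.363 and 2.7 FPKM in input (2.42 ± 0.63, adjusted p = 0.041), and the list median was -0.07. Of 10 markers of oligodendrocyte precursors 1 was lower, Pdgfra (-1.5 ± 0.4, adjusted p = 0.046), and of 8 tanycyte markers 1 was lower, Gpr50 (-1.57 ± 0.35, adjusted p = 0.024). Tanycytes line the third ventricle. Each of these 3 calls was lost with any 1 input library left out, and that on Cd68 also with a pseudocount of 0.1, with no filter, without mitochondrially encoded genes and with the IP library of index 1 left out. That on Pdgfra was also lost with that pseudocount and with no filter. The 3 ependymal and 4 vascular markers tested gave 0 calls in limma, and 0 at an unadjusted p under 0.05, although the vascular pericyte gene Rgs5 had 43.4, 3.33 and 0.775 FPKM in IP, against 27.1, 34.6 and 26 FPKM in input, with the library of index 0 apart from the other IP libraries.

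Some choroid plexus and blood markers were higher. Of 15 choroid plexus markers, 3 were higher and 0 were lower, leaving 12 without a call, with a median of 1.13 and a summed level of 471 to 991 FPKM in IP and 163 to 233 FPKM in input. Ttr, transthyretin, the main secreted protein of the plexus, had 551, 353 and 274 FPKM in IP, against 48.9, 42.3 and 33.2 FPKM in input (3.17 ± 0.29, adjusted p = 0.00091). Calml4 (2.04 ± 0.4, adjusted p = 0.016) and the channel subunit Kcne2 (1.63 ± 0.36, adjusted p = 0.025) were low but higher in each IP library. That count was 1 with 1 input library left out and 3 to 5 with 1 IP library left out. Of 6 blood markers, 4 were higher, all of them globin genes. Hbb-bs, a beta globin, had 167, 105 and 229.6 FPKM in IP, against 5.88, 5.32 and 5.52 FPKM in input (4.61 ± 0.31, adjusted p = 0.00035), and Hba-a1, an alpha globin, had 41.2, 55.1 and 309 FPKM in IP, against 2.04, 3.17 and 3.38 FPKM in input (4.56 ± 0.71, adjusted p = 0.0067). The globin genes exist in near-identical copies, so how reads were split between them is uncertain.

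Long non-coding RNAs that stay in the nucleus held the most negative change of all named genes, that of Malat1. Of 8 tested, 3 were lower and 1 was higher, leaving 4 without a call, with a median of -1.18. Malat1, of nuclear speckles (chromosome 19, 5795690 to 5802672, minus strand, GRCm38), had 553, 197 and 124 FPKM in IP, against 8400.4, 5746 and 5299.8 FPKM in input (-4.73 ± 0.52, adjusted p = 0.0016), and a gene model overlaps its exons on the other strand. Miat had 3.67, 4.29 and 4.07 FPKM in IP, against 24.6, 38.1 and 27.4 FPKM in input (-2.61 ± 0.3, adjusted p = 0.0020). Neat1, the core of paraspeckles, had 8.13, 7.75 and 1.54 FPKM in IP, against 35.7, 24.9 and 24.1 FPKM in input (-2.29 ± 0.53, adjusted p = 0.028). All their IP values were far below input. Peg13, an imprinted RNA, went the other way, with 186, 249 and 361 FPKM in IP, against 54.5, 47.9 and 58.9 FPKM in input (2.23 ± 0.27, adjusted p = 0.0023). Gene models of the GENCODE class TEC, which await experimental evidence and are often single-exon, were lower in 31.3% and higher in 1.03% of 195 tested, with a median of -1.26.

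Messages for chromatin and zinc finger proteins gave more lower than higher calls, against 10.5% higher and 5.24% lower over all genes. Of 95 chromatin modifiers, 12 were lower and 1, Smarce1, was higher, leaving 82 without a call, with a median of -0.39. Kmt2a, a histone H3 lysine methyltransferase, had 7.48, 5.16 and 7.6 FPKM in IP, against 19.1, 31.4 and 28.9 FPKM in input (-1.81 ± 0.32, adjusted p = 0.011). Brwd3 had 0.659, 1.56 and 1.04 FPKM in IP, against 10.6, 10.3 and 9.49 FPKM in input (-2.44 ± 0.38, adjusted p = 0.0066), and the remodelers Chd8 (-1.39 ± 0.25, adjusted p = 0.012) and Chd9 (-1.08 ± 0.2, adjusted p = 0.013) were lower. The count was 0 to 1 with 1 input library left out and 17 to 26 with 1 IP library left out. Of 284 genes named Zfp, most of them zinc finger proteins, 22 were lower and 9 higher, with a median of -0.39. Zfp871 had 18.1, 21.9 and 27.8 FPKM in IP, against 91.1, 86.6 and 83.2 FPKM in input (-1.92 ± 0.23, adjusted p = 0.0023) and Zfp706 had 64.4, 74.4 and 82.1 FPKM in IP, against 26.1, 27 and 27.6 FPKM in input (1.41 ± 0.2, adjusted p = 0.0048). The lower count was 2 with 1 input library left out and 39 to 52 with 1 IP library left out, and the higher count was 1 with 1 input library left out and 8 to 18 with 1 IP library left out.

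Splicing factors moved in both directions. Of 113 tested, 16 were higher and 10 lower, against 10.5% higher and 5.24% lower over all genes, with a median of -0.01. The balance turned with the scaling, to 9 higher and 28 lower with quantile normalization, and 6 higher and 29 lower without mitochondrially encoded genes. Among the higher were the spliceosome core protein gene Snrpg, with 237, 108 and 128 FPKM in IP, against 16.8, 15.9 and 16.2 FPKM in input (3.11 ± 0.31, adjusted p = 0.0011), Lsm6 (2.38), Snrpd1, Snrpd2, Snrpe, Snrpf and Hnrnpa1 (1.44). Among the lower were the helicase gene Ddx17, with 34.7, 28.1 and 11.9 FPKM in IP, against 116, 130.4 and 111 FPKM in input (-2.33 ± 0.38, adjusted p = 0.0080), and Srsf11 (-1.67), Srrm1, Clk4 and Rbm25. The counts were 2 with 1 input library left out and 12 to 23 with 1 IP library left out for the higher, and 0 to 2 with 1 input library left out and 15 to 19 with 1 IP library left out for the lower.

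Host genes of small nucleolar RNAs, whose spliced RNAs are in part bound by ribosomes, gave 7 calls. Of 15 tested, 6 were higher and 1 was lower, leaving 8 without a call, with a median of 1.75. Gas5 (chromosome 1, 161034422 to 161038539, plus strand) had 5869.7, 3196 and 3370.4 FPKM in IP, against 386, 313 and 312 FPKM in input (3.57 ± 0.27, adjusted p = 0.00049). Snhg8 had 363, 319.7 and 297 FPKM in IP, against 14.6, 9.7 and 13.2 FPKM in input (4.61 ± 0.22, adjusted p = 0.00035). Both have a pyrimidine run at the start printed above, which 7 of 13 host genes had at a listed start (53.8%), and small nucleolar RNAs lie within their exons or introns. Snhg12 (3.43), Zfas1 (2.53), Epb41l4aos (4.58) and Snhg14 (2.19), whose exons overlap Ube3a, were higher too. Snhg11 was lower, with 137, 106 and 71.2 FPKM in IP, against 248, 426 and 274 FPKM in input (-1.59 ± 0.31, adjusted p = 0.016). The higher count was 6 with 1 input library left out and 6 to 10 with 1 IP library left out.

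Selenoproteins, which carry selenocysteine, held the largest rise of all named genes. Selenow had 1373, 846 and 606 FPKM in IP, against 22.1, 10.9 and 9.84 FPKM in input (5.95 ± 0.39, adjusted p = 0.00035). Of 18 tested, 6 were higher and 0 lower, with a median of 0.69. Selenoh (3.19), Selenom (2.38), Gpx1 (2.11), Selenof and Gpx4 were the others, while Selenot had 65.7, 103 and 54.3 FPKM in IP, against 67.1, 65.8 and 66.4 FPKM in input and did not pass (0.11 ± 0.26, adjusted p = 0.82). The count was 4 with 1 input library left out and 5 to 8 with 1 IP library left out. Of 10 metallothionein and glucocorticoid-induced genes 3 were higher, the metal-binding Mt1, with 232, 170.5 and 243 FPKM in IP, against 27.2, 22.2 and 33.1 FPKM in input (2.92 ± 0.24, adjusted p = 0.00060), Mt2 (2.03 ± 0.34, adjusted p = 0.0088) and Mt3, with 46.9, 25.9 and 32.2 FPKM in IP, against 1.82, 3.06 and 1.23 FPKM in input (3.57 ± 0.38, adjusted p = 0.0015). Of 19 clock genes 2 were higher, the output factors Dbp, with 53.3, 24.4 and 51 FPKM in IP, against 12.6, 6.44 and 7.39 FPKM in input (2.14 ± 0.4, adjusted p = 0.014), and Hlf (0.79 ± 0.18, adjusted p = 0.028, and -0.28 with quantile normalization), with a list median of -0.16. Higher clock genes came in a share near the 10.5% of all genes, and their count was 0 to 1 with 1 input library left out. The clock calls became 1 higher and 4 lower with quantile normalization, and 1 higher and 4 lower without mitochondrially encoded genes. Exons of Dbp overlap Sphk2.

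Lists of protein handling gave mostly higher calls, against 10.5% higher and 5.24% lower over all genes, but this depended on the scaling. Of 34 proteasome genes 5 were higher and 0 lower (median 0.76; 2 higher and 1 lower with quantile normalization, and 1 higher and 1 lower without mitochondrially encoded genes), among them Psmb10, an immunoproteasome subunit, with 42.2, 62.9 and 104 FPKM in IP, against 8.98, 7.02 and 9.18 FPKM in input (2.82 ± 0.35, adjusted p = 0.0028). Of 35 genes of the ER translocon and its partners 8 were higher and 1, Sec63, lower (median 0.41, and -0.02 without mitochondrially encoded genes; 5 higher and 4 lower with quantile normalization, and 4 higher and 5 lower without mitochondrially encoded genes), led by Ost4, a very small subunit of oligosaccharyltransferase, with 705, 625 and 436 FPKM in IP, against 59.9, 50.4 and 60.5 FPKM in input (3.32 ± 0.23, adjusted p = 0.00035). Of 31 V-ATPase and lysosome genes 9 were higher and 0 lower (median 0.42, and -0.39 with quantile normalization). There were 3 higher and 4 lower with quantile normalization, and 4 higher and 2 lower without mitochondrially encoded genes. Atp6v0c, the proteolipid of the proton channel, had 201, 197 and 290.4 FPKM in IP, against 30.7, 30.8 and 24.5 FPKM in input (2.94 ± 0.23, adjusted p = 0.00053), whereas Atp6v1a, the catalytic subunit, did not pass (0.42 ± 0.24, adjusted p = 0.29). Of 37 chaperones 9 were higher and 0 lower (median 0.48, and -0.08 with quantile normalization), led by the prefoldin subunit Pfdn5 (2.68 ± 0.31, adjusted p = 0.0020). For chaperones the calls became 3 higher and 9 lower with quantile normalization, and 4 higher and 5 lower without mitochondrially encoded genes. With 1 input library left out, the higher counts fell to 1 for the proteasome, 2 to 4 for the translocon, 4 for the V-ATPase and 2 for chaperones, and with the IP library of index 0 left out they were 9, 14, 10 and 10.

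The remaining lists gave calls in shares near the 15.8% of all genes or below it. Of 32 aminoacyl-tRNA synthetases 3 were higher, Lars2 (2.26), Sars (2.09) and Aars (1.83), and 2 lower, Cars2 (-2.17) and Iars2, with a median of 0.03. Of 33 tubulins and kinesins 3 were higher, led by the kinesin light chain Klc2 (2.28 ± 0.31, adjusted p = 0.0042), and 3 lower, the motors Kif21a, Kif13b and Kif2a, with a median of -0.1. These became 1 higher and 11 lower with quantile normalization, and 1 higher and 8 lower without mitochondrially encoded genes, and 1 higher and 0 lower with any 1 input library left out. Of 39 cadherins 1 was higher, Cdh7 (1.65 ± 0.3, adjusted p = 0.012), and 1 lower, Cdh19 (-1.4 ± 0.36, adjusted p = 0.038), and both calls were lost with any 1 input library left out.

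The enrichment was also read in the 8 high-fat diet libraries, which share no library with those on control diet. There 5021 genes were called (40.6%), 2721 higher and 2300 lower in IP. Of the 1300 genes higher in IP on control diet, 1278 had the same direction in these pools and 1167 were called higher. Of the 648 lower ones, 633 had the same direction and 474 were called lower. Calls with the same direction in both made up 84.2% of the control-diet calls and 32.7% of the high-fat diet calls. The median of ribosomal protein genes was 3.1 on control diet and 2.77 on high-fat diet, that of nuclear respiratory chain genes 2.07 and 1.81, of thalamic markers 1.4 and 1.57, of astrocyte markers -1.1 and -0.89, and of activity-induced genes 0.71 and 0.4. Across genes the changes on the 2 diets correlated with a Pearson r of 0.79 (n = 12359), given as a description.

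**Figure D5:**
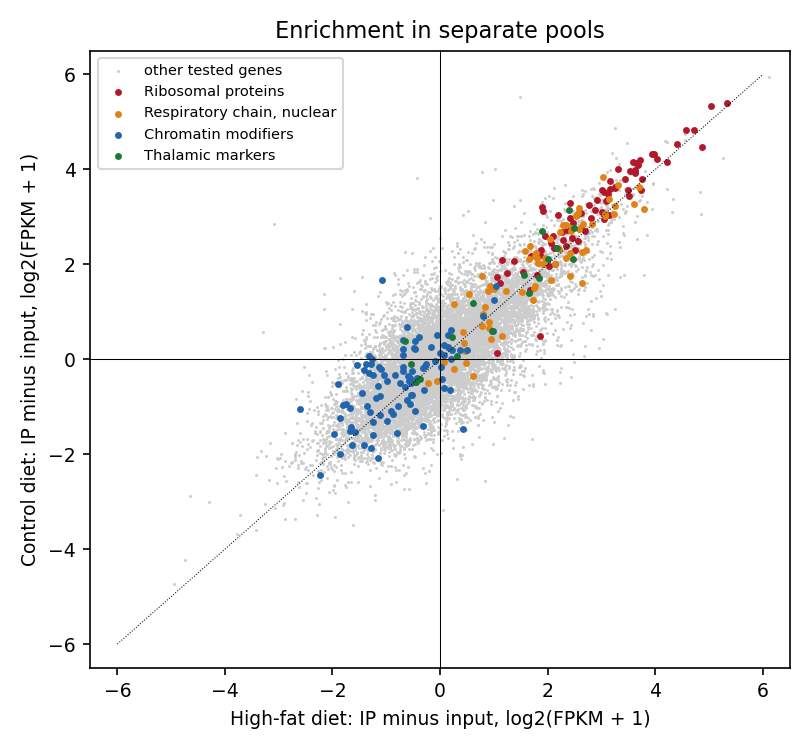
Log2 difference of IP minus input on control diet (y axis) against that on high-fat diet (x axis), log2(FPKM + 1) scale, 1 point a tested gene, with 4 lists in colour; the dotted line marks equal changes. Ribosomal protein and nuclear respiratory chain genes lie in the upper right, with medians of 3.1 and 2.07 on control diet and 2.77 and 1.81 on high-fat diet.

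Few differences between the diets in enrichment passed a test. In a fit of all 14 libraries, the difference of enrichment was called for 1 gene of 12359 (0.00809%), at an unadjusted p under 0.05 for 824. That count was not stable: it rose with the control-diet IP library of index 0 or of index 1 left out, as given in the last section. Pomc changed by 0.61 on control diet and 2.8 on high-fat diet, a difference of -2.18 ± 0.8 (adjusted p = 0.67), and Agrp by -0.05 and 2.5 (difference -2.55 ± 1.11, adjusted p = 0.74). On high-fat diet Pomc had 22.8, 15.7, 11.5 and 8.33 FPKM in IP, against 0.484, 2.0, 1.12 and 1.09 FPKM in input, with every IP library above input. Agrp had 27.4, 11.4, 0.606 and 8.43 FPKM in IP, against 0, 0.949, 0.684 and 0.595 FPKM in input, with the IP library of index 2 within the input range. These 2 genes were picked out after their values were seen.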

How the data were processed

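RNA was measured in 3 IP and 3 input libraries on control diet and, for 1 comparison, in 4 and 4 libraries on high-fat diet. RNA was amplified before library preparation with poly(T) and random primers, per the labels' protocols. The authors deposited FPKM per gene, and the submitters' processing notes name Cuffdiff, Cufflinks 2.2.1, StringTie 1.3.4d and HISAT2 2.1.0 with build GRCm38.p6 and no role for each tool. The deposited ratio of IP to input was used only as a check: per the file headers it is a quotient of 2 columns, and it equalled that of same-index columns in 12924 of 12924, 14333 of 14333 and 13748 of 13748 entries on control diet (tolerance 0.001). Columns carry an index in place of the labels' replicate numbers, so each column has a group but no labelled sample.

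FPKM are not counts, so no count model was used, and no counting interval can be given. The 14531 entries hold 14519 symbols. Genes with a mean of at least 1 FPKM over the 6 control-diet libraries (12359) were fitted on log2(FPKM + 1) with limma 3.58.1 in R 4.3.3 (trended empirical Bayes, two-sided), on those 6 libraries only, with Benjamini-Hochberg adjustment over all tested genes and a threshold of 0.05. Values after ± are standard errors. This scale understates changes of genes with values around 1 FPKM or less. The high-fat diet libraries were fitted separately for the same genes, and the difference between diets in a fit of all 14 libraries. p-values measure spread between libraries, each from 1 pool. The main fit uses 1 estimate of spread per gene for both fractions, although IP libraries varied far more than input libraries. The fit treats the 6 libraries as independent, although an IP and an input library may come from the same pool.

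The 46 gene lists, their members and the tests were chosen with earlier results of these data known. Lists are described by counts and medians without a test. Named genes are the 10 largest changes per direction without overlap, the 10 smallest p per direction outside the lists, up to 4 members per list with the smallest p and up to 2 with the highest mean, and Fos, Agrp, Npy, Pomc, Cartpt, Pnoc, Crh, Trh, Hcrt, Pmch, Avp, Oxt, Sst, Cck and Rps6. Oxt was not analysed here. A few named genes are left out of the text. Other members are named where a list's calls are spelled out, after their values were seen. Lengths, GC and positions came from GENCODE M21 (12349 of 12359 genes matched), and start windows from RefSeq on GRCm38.p6. Fits were tested on simulated data. Alternatives were pseudocount, filter, scaling, library weights, all libraries, an index block and leaving out libraries.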

Additional observations from a re-analysis of the deposited data

Results flagged for a closer look

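The enrichment of Gm17122, an antisense gene model chosen after its values were seen, differed between the diets. It had 12.9, 11.5 and 28.9 FPKM in IP, against 0.99, 1.71 and 1.53 FPKM in input on control diet. On high-fat diet its values in all 4 IP libraries were so near 0 that they round to 0, against 12.9, 14.4, 7.12 and 2.02 FPKM in input. The log2 change of IP over input was 2.86 on control diet and -3.09 on high-fat diet, a difference of 5.948 ± 0.70 (limma, adjusted p = 0.0052). All 3 IP libraries on control diet lay above input and all 4 on high-fat diet below it. It was the only gene of 12359 called for this difference in the fit of all 14 libraries. The library kit does not mark strand, so reads of an antisense model and of its partner cannot be told apart.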

How the results depend on the processing

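The 1948 calls became 3307 in a fit of all 14 libraries and 1077 without the index 0 libraries of both fractions. With 1 library left out they ranged from 529 to 3830, lowest without input index 1 and highest without IP index 0. The other alternatives, apart from the index block given below, gave 1725 (pseudocount 0.1) to 2780 (without mitochondrially encoded genes). Deviations of same-index libraries correlated at 0.0208, -0.00424 and 0.0355. With the wide spread of the IP libraries, this cannot show whether same-index libraries share a pool. The share of mitochondrially encoded genes in summed FPKM fell with the index in both control-diet fractions (30.8%, 27.3% and 23.5% in input, 15.5%, 7.81% and 2.66% in IP). With a replicate block on the index 1338 genes were called, 1260 of them among the 1948, and the IP library of index 1 correlated best with the input library of index 0 (0.00946). The deposited ratios do divide same-index columns. With that block the lower calls became 0 for metabolic receptors and 0 for the mTOR pathway, against 3 and 2 as reported, 10 for Zfp genes, against 22, and 7 for chromatin modifiers, against 12, while higher splicing factors became 9, against 16. The difference between diets was called for 1 to 141 genes with 1 library left out, 10 without IP index 0 and 141 without IP index 1 on control diet. With quantile normalization the change of Atp1b2 was -0.284, Gabbr1 -0.018, Gabbr2 -0.136, Hlf -0.285, Hnrnpd -0.962, Hsp90ab1 -0.172, Hsph1 -0.779, Ppp1cb -0.726, Tuba1b -0.858 and Tubb4a -0.859, all positive as reported. The list medians turned to -0.15 (pan-neuronal), -0.387 (granins), -0.641 (synaptic vesicle), -0.084 (chaperones) and -0.386 (V-ATPase) with quantile normalization. Without mitochondrially encoded genes they turned to -0.024 (translocon), -0.252 (granins), -0.121 (hypothalamic factors), -0.362 (synaptic vesicle), -0.13 (potassium channels), -0.052 (chaperones) and -0.142 (V-ATPase). With 1 library left out the median of granins ranged from -0.033 to 0.477 and that of hypothalamic factors from -0.029 to 0.451. The cause of these shifts was not tested. The IP libraries' spread limits what can be called, and the unknown depth leaves values near 0 without an interval.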
